A study of Mus musculus with 8 samples.

Results

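The Cyp2c genes encode a subfamily of cytochrome P450 enzymes, haem proteins of the endoplasmic reticulum that add oxygen to drugs, steroids, retinoids and fatty acids. In the mouse the subfamily has expanded to many copies, most of them expressed in hepatocytes, and several are known as epoxygenases that turn arachidonic acid into vasoactive epoxides. Their transcription in liver is known to depend on HNF4A, on the drug-sensing receptors CAR and PXR and, for some members, on the sex-specific pattern of growth hormone. A named set of 10 genes of the subfamily was followed here: Cyp2c29, Cyp2c37, Cyp2c38, Cyp2c39, Cyp2c40, Cyp2c44, Cyp2c50, Cyp2c54, Cyp2c55 and Cyp2c70. They were chosen by symbol from a table of 45777 gene identifiers, and all 10 were found. Cyp2c44 was matched through an older name, since the reference lists gene 226143 as Cyp2c23. A further 6 Cyp2c rows of the table, 5 protein-coding genes and 1 pseudogene, were read beside them.

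RNA of mouse liver and of mouse colon was measured in 4 groups: a non-alcoholic steatohepatitis model (NASH), the model with a low dose of bovine colostrum extracellular vesicles (EV low dose), the model with a high dose (EV high dose), and control animals. There was 1 library per group and tissue, 8 in all. The labels name the EV groups by dose alone, and the design text places the study in the NASH model. Neither states the strain, sex, age or diet of the mice, the dose amounts, the way the model was made or whether animals were pooled. With 1 library per group no test can be run, and every difference below is between 2 libraries with no replicate error.

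Values are FPKM, read fragments scaled to transcript length and to the size of the library, so levels of different genes can be set side by side. No counts were used, so the depth behind each value is unknown. Differences are given as log2 ratios of FPKM + 1 after subtracting the ratio of the median gene of that tissue, and 2-fold or more on that scale (1 log2 unit) was taken as apart. The subtraction matters in liver, where the median gene stood 0.55 log2 units higher in NASH than in control, and at -0.14 (EV low dose) and -0.13 (EV high dose) against NASH. In liver 12420 genes were at 1 FPKM or more in NASH and 10469 in control. In colon there were 14480 such genes in NASH and 13993 in control. All 10 hepatocyte markers were above 1 FPKM in the 4 liver libraries, and all 15 colon epithelium markers were above 1 FPKM in the 4 colon libraries.

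All 10 members lie on chromosome 19. Of these, 9 form 1 cluster of GRCm38 (mm10), which runs from Cyp2c55 (39006940 to 39042690) to Cyp2c70 (40153361 to 40187286). Cyp2c44 stands apart at 44005022 to 44029256. Within the cluster Cyp2c29 (39287044 to 39330713), Cyp2c39 (39347346 to 39569568) and Cyp2c38 (39389556 to 39463103) are neighbours, as are Cyp2c37 (39992424 to 40012243), Cyp2c54 (40037939 to 40073845) and Cyp2c50 (40089679 to 40113955). Cyp2c40 (39767073 to 39812814) lies among Cyp2c67, Cyp2c68 and Cyp2c69.

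The members differ in how far reads can tell them apart. The coding sequences of Cyp2c37 and Cyp2c50 are 96.1% identical and those of Cyp2c54 and Cyp2c50 95.2%, and 32.2%, 32.4% and 26.9% of the windows of 50 bases in Cyp2c37, Cyp2c50 and Cyp2c54 occur unchanged in another Cyp2c gene. Cyp2c38 and Cyp2c39 are 94.2% identical, with 13.7% and 13.1% of windows shared. Cyp2c40 shares 73.7% of its windows with other copies, most of all Cyp2c69. Cyp2c29 shares 0.633%, and Cyp2c44, Cyp2c55 and Cyp2c70 share 0%. By this measure the coding sequences of Cyp2c29, Cyp2c44, Cyp2c55 and Cyp2c70 are almost or wholly their own among the protein-coding Cyp2c genes. Untranslated sequence, the pseudogene and near matches were not compared. The division of reads within the other groups is uncertain, and sums over each group are given where they bear on a result.

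Start-site regions are shown for 2 pairs of neighbours whose RNA is compared below, and for Cyp2c55, the member of the colon. Sequences are from RefSeq (GRCm38.p6), which held a region for 8 of the 10 members. Each runs from 250 bases before the start site set for the region to 50 bases after it, 5′ to 3′ on the gene's strand. For Cyp2c29, Cyp2c38 and Cyp2c55 that site lies inside the locus given above and not at its end. In the regions, capitals mark matches to 1 of the 5 motifs named after them. They lie at chr19:39286835-39287134 (plus strand, Cyp2c29), chr19:39463026-39463325 (minus strand, Cyp2c38), chr19:39992174-39992473 (plus strand, Cyp2c37), chr19:40089429-40089728 (plus strand, Cyp2c50) and chr19:39006769-39007068 (plus strand, Cyp2c55).
Cyp2c29: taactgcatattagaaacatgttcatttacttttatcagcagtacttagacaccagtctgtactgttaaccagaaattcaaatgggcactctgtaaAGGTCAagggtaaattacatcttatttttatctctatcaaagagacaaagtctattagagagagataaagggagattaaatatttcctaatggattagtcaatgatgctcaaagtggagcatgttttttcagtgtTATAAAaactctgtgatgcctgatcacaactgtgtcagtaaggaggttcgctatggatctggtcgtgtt
Cyp2c38: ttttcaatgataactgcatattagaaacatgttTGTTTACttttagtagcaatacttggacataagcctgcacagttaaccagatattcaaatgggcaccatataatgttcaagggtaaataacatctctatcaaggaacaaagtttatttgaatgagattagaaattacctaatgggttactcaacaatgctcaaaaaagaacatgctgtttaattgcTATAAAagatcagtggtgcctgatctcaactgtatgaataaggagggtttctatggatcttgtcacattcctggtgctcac
Cyp2c37: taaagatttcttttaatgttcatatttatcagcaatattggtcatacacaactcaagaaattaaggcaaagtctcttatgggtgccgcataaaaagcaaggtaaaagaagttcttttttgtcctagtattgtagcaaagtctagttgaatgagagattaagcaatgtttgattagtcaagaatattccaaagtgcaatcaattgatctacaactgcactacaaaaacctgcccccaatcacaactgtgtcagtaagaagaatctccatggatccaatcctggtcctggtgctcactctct
Cyp2c50: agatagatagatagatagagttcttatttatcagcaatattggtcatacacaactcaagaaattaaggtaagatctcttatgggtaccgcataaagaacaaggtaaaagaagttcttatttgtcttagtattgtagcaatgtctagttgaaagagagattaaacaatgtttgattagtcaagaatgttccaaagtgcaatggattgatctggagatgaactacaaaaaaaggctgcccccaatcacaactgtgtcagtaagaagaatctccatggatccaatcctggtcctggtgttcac
Cyp2c55: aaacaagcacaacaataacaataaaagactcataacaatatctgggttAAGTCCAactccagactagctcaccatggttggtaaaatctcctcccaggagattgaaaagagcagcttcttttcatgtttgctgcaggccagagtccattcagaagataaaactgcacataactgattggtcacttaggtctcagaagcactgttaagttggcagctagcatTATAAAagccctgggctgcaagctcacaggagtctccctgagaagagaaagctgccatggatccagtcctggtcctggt

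The motifs, searched on both strands, were TATAAA (the TATA box, in 13.6% of all 32851 start-site regions of the same length), AGGTCA (a half-site of nuclear receptors, 16.3%), AAGTCCA (the core of an HNF4A-type site, 4.17%), TGTTTAC (a forkhead core, 3.65%) and TTCNNNGAA (a STAT5-type palindrome, 8.30%). Counting the start base as 0, the Cyp2c29 region holds TATAAA at -19 to -14 and AGGTCA at -154 to -149. The Cyp2c38 region holds TATAAA at -31 to -26 and TGTTTAC at -217 to -211. These 2 regions are 70.8% identical in alignment. The Cyp2c37 and Cyp2c50 regions are 86.6% identical and hold none of the 5 motifs. The Cyp2c55 region holds TATAAA at -29 to -24 and AAGTCCA at -202 to -196. A match is a run of letters and not a measured site.

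In the liver the NASH library held far less Cyp2c RNA than the control library. The summed FPKM of the 10 members was 299 in NASH, 384 in EV low dose, 470.4 in EV high dose and 1532 in control. NASH thus stood 5.13 times below control in FPKM, or at -2.91 in log2 relative to the median gene. Of the 10 members, 8 were 2-fold lower in NASH than in control, 1 (Cyp2c38) was 2-fold higher and 1 (Cyp2c39) lay within 2-fold. Over all 12866 genes kept in liver 7.66% were 2-fold lower and 7.21% higher. The median of the 10 members was -1.62, against 0 by construction over all genes. Taken as deposited, without subtracting the median gene, 5 members were 2-fold lower and 2 higher.

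**Figure D1:**
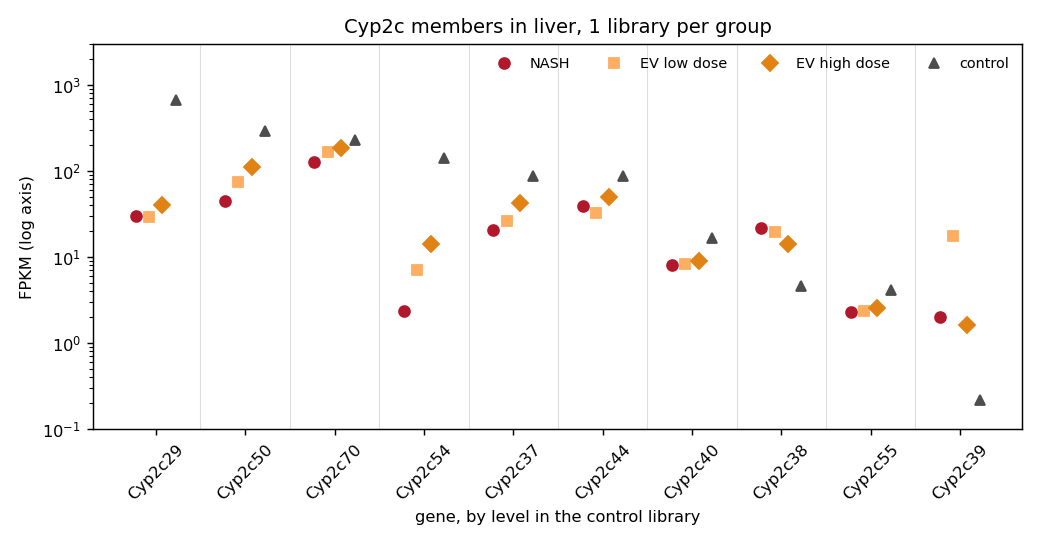
FPKM of the 10 members in the 4 liver libraries, on a log axis, with 1 point per library and genes ordered by their control level. Control is the highest library for 8 genes and the lowest for Cyp2c38 and Cyp2c39, and Cyp2c39 stands out in EV low dose at 17.5 FPKM.

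The largest differences were in Cyp2c54 and Cyp2c29. Cyp2c54, an enzyme known to epoxidise arachidonic and linoleic acid, was at 2.38 FPKM in NASH, 7.16 in EV low dose, 14.2 in EV high dose and 142 in control. The NASH value was 59.7 times below control (log2 -5.96), which ranks it 23 from the lowest of the 12866 genes. Cyp2c29, an arachidonic acid epoxygenase and a classic phenobarbital-inducible P450, was at 29.9 FPKM in NASH, 29.6 in EV low dose, 40.8 in EV high dose and 665 in control. It stood 22.3 times below control in NASH (log2 -4.99, rank 28 from the lowest). The 2 genes differ in what the EV libraries show: Cyp2c54 is spread over the NASH and EV libraries, whereas Cyp2c29 in EV low dose was level with NASH.

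The neighbours of Cyp2c54 lay in the same direction. Cyp2c50, a further epoxygenase, was at 44.4 FPKM in NASH, 74.9 in EV low dose, 112 in EV high dose and 295 in control (NASH over control log2 -3.26). Cyp2c37, known to make hydroxylated arachidonic acid, was at 20.6, 26.4, 42.6 and 87.7 FPKM in the same libraries (log2 -2.59). Summed over Cyp2c37, Cyp2c50 and Cyp2c54, which removes the division of shared reads among them, the NASH library held 67.3 FPKM and the control library 524, a log2 ratio of -3.50. In all 3 genes the 4 libraries come in the same order, with NASH lowest and control highest.

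The other liver members were lower by less. Cyp2c70, which in mice hydroxylates chenodeoxycholic acid on the way to muricholic acids, was at 128 FPKM in NASH, 166 in EV low dose, 184 in EV high dose and 229 in control (NASH over control log2 -1.38). Cyp2c44, an epoxygenase also known from kidney, was at 39.3, 32.9, 50.2 and 87.7 FPKM in these libraries (log2 -1.69). Cyp2c40, known to hydroxylate arachidonic acid, was at 8.001, 8.28, 9.11 and 16.8 FPKM (log2 -1.54), and Cyp2c55 at 2.28, 2.37, 2.57 and 4.16 FPKM (log2 -1.21). The 4 genes are all highest in control, but as deposited Cyp2c40, Cyp2c55 and Cyp2c70 were less than 2-fold apart (log2 -0.99, -0.65 and -0.83) and their calls rest on the shift of the median gene. Cyp2c44 stood at -1.14 as deposited and at -0.76, within 2-fold, when the libraries were scaled to equal summed FPKM.

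Cyp2c38 and Cyp2c39 went the other way. Cyp2c38, an epoxygenase close in sequence to Cyp2c29, was at 21.7 FPKM in NASH, 19.4 in EV low dose, 14.1 in EV high dose and 4.60 in control (NASH over control log2 1.47). Cyp2c39, known as a retinoic acid hydroxylase, was at 2.01 FPKM in NASH, 17.5 in EV low dose, 1.62 in EV high dose and 0.218 in control (log2 0.75, or 1.30 as deposited). Control was the lowest library for both. Their sum was 23.7 FPKM in NASH and 4.81 in control (log2 1.53). Cyp2c29 and Cyp2c38, whose start-site regions are 70.8% identical, thus lay more than 2-fold from control in opposite directions.

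The make-up of the listed members differed along with their summed amount. These shares and ranks leave out the other Cyp2c genes. In NASH Cyp2c68 (109 FPKM) and Cyp2c67 (60.3 FPKM) were above Cyp2c50 (44.4 FPKM). In control Cyp2c67 (210 FPKM) was above Cyp2c54 (142 FPKM). In NASH Cyp2c70 was first with 42.9% of the summed FPKM of the members, followed by Cyp2c50 with 14.9% and Cyp2c44 with 13.1%, while Cyp2c29 held 9.998% and Cyp2c54 0.796%. Cyp2c70 also led in EV low dose (43.1%) and EV high dose (39.04%), where Cyp2c50 held 19.5% and 23.7%. In control Cyp2c29 was first with 43.4%, followed by Cyp2c50 (19.2%), Cyp2c70 (14.9%) and Cyp2c54 (9.26%). Neighbouring ranks cannot be separated without replicates: Cyp2c37 (87.73 FPKM) and Cyp2c44 (87.67 FPKM) were level in control.

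**Figure D2:**
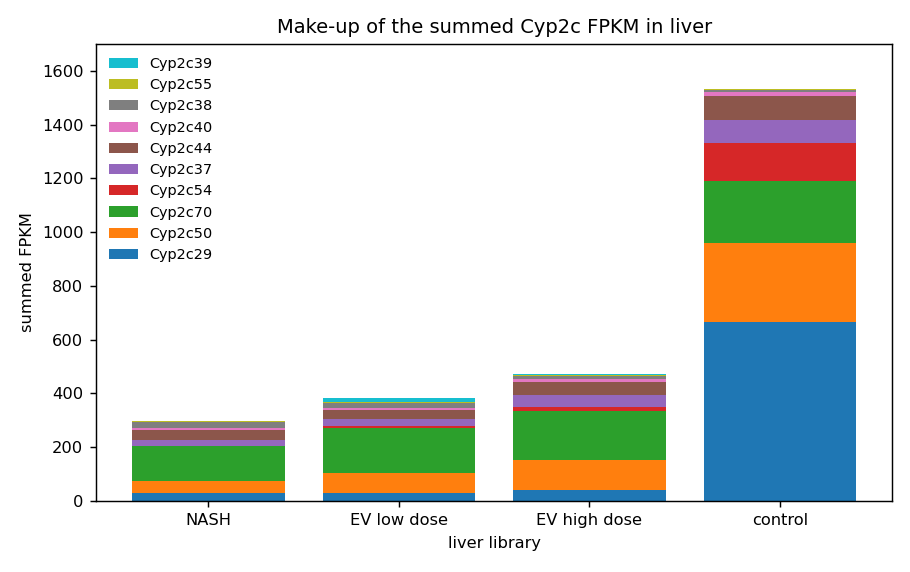
Summed FPKM of the 10 members in each liver library, stacked by gene in the order of the control level. The NASH bar reaches 299 FPKM and the control bar 1532, and the Cyp2c29 and Cyp2c54 layers differ most.

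Cell type markers moved with this difference. In the NASH liver 9 of 10 macrophage markers were 2-fold higher, their summed FPKM being 580 against 107 in control, and 5 of 10 stellate cell markers were, with 363 against 95.4. Of 8 cholangiocyte markers 4 were kept, of which 2 were higher, and the list summed to 70.5 FPKM against 14.1. Hepatocyte markers had 4 of 10 lower and 6 within 2-fold (median -0.92), with a sum of 29742 FPKM in NASH and 42607 in control. No defining marker of these 4 lists was at 0 in a liver library. Fewer hepatocytes and less RNA per hepatocyte cannot be told apart in such libraries, and the part of this in the Cyp2c values was not tested. The summed members stood at -2.91. The hepatocyte markers ran from -2.89 (Serpina1c, the lowest) and -2.23 (Ttr) to -0.11 (Ahsg) and 0.02 (Apob, the highest).

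Of the 5 other protein-coding Cyp2c genes, 3 reached 1 FPKM in a liver library. Cyp2c67 was at 60.3 FPKM in NASH, 76.0 in EV low dose, 93.7 in EV high dose and 210 in control (NASH over control log2 -2.34). Cyp2c68 was at 109, 109, 135 and 127 FPKM (log2 -0.77) and Cyp2c69 at 2.54, 3.44, 3.79 and 7.56 FPKM (log2 -1.82). With Cyp2c40, with which they share much sequence, they summed to 180 FPKM in NASH and 361 in control (log2 -1.56). Cyp2c65 and Cyp2c66 were at or near 0 in liver, and the pseudogene Cyp2c53-ps was at 0 in NASH and both EV libraries and at 0.720 FPKM in control.

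Genes around the P450 enzymes did not move as one. Of 10 genes for electron supply and haem, 4 were 2-fold higher and 1 lower in NASH than in control. Por, the reductase that feeds electrons to microsomal P450s, was at 145 against 22.3 FPKM (log2 2.10), and Alas1, the first enzyme of haem synthesis, at 351 against 39.7 (log2 2.56). Cyb5b was the 1 lower gene (log2 -1.28), and Cyb5a stood at -0.89. Por and Alas1 thus stood opposite to most members in the same 2 libraries.

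Receptors and factors known to control Cyp2c genes were mostly within 2-fold. Of 18 regulators 2 were 2-fold higher, none lower and 16 within 2-fold (median -0.17). Nr1i3 (CAR) was at 55.9 FPKM in NASH and 49.7 in control (log2 -0.38), and Foxa2, a liver forkhead factor, stood at -0.56. The 2 higher were the clock-controlled factors Dbp (38.1 against 1.60 FPKM, log2 3.36) and Tef (31.2 against 8.11, log2 1.27). The targets of CAR and PXR split, with 4 of 18 kept genes higher and 2 lower (median 0.24): Gsta1 (log2 3.94) and Cyp2b9 (log2 2.48) were higher, and the carboxylesterase Ces2a (log2 -4.06) and Cyp3a25 (log2 -1.55) lower. In the growth hormone list 4 of 9 kept genes were lower and none higher (median -0.66), with the receptor Ghr at 44.6 against 115 FPKM (log2 -1.89) and Igfals, a carrier protein of IGF1, at 15.4 against 40.1 (log2 -1.88). Socs2 (log2 -0.02) and Jak2 (log2 0.56) of that list were within 2-fold.

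Lists that share a pathway with members held further lower genes. Among 8 kept genes of fatty acid epoxide metabolism 2 were lower and none higher, the epoxygenases Cyp2j5 (41.7 against 151 FPKM, log2 -2.39) and Cyp2j9 (log2 -2.10), while the epoxide hydrolase Ephx1 stood at 0.41 and the phospholipase Pla2g6 at 0.93. Bile acid synthesis, in which Cyp2c70 works, had 7 of 13 lower and 1 higher (median -1.09). Cyp7b1 (log2 -3.58) and Cyp8b1 (log2 -3.17) were lowest, Cyp7a1 was the higher one (57.8 against 9.52 FPKM, log2 1.93), and Hsd17b4 stood at -0.02. Of 19 genes of pericentral hepatocytes, the zone in which Cyp2c29, Cyp2c37, Cyp2c50 and Cyp2c54 are known to be expressed, 4 were lower and none higher (median -0.16), with Rgn at -1.81 and Oat at -1.33, against Aldh1b1 at 0.50 and Ahr at 0.33. Of 18 periportal genes 8 were lower and none higher (median -0.98), with Cyp2f2 at -2.94 and Hal at -2.79, against Hsd17b13 at 0.87 and Ctsc at 0.60.

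With the EVs some members stood higher than in the NASH library, and Cyp2c54 passed 2-fold at both doses. Both comparisons use the same NASH library and are not independent. In EV low dose 2 members were 2-fold higher than in NASH, none lower and 8 within 2-fold. Over all genes 0.443% were higher and 0.225% lower. The median of the members was 0.33. The 2 were Cyp2c39 and Cyp2c54. Cyp2c54 was at 7.16 FPKM in EV low dose against 2.38 in NASH (log2 1.41), and Cyp2c50 came next at 0.88. With a pseudocount of 5 FPKM Cyp2c54 fell short of 2-fold (log2 0.80).

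Cyp2c39 was the highest ratio of all 12866 genes in EV low dose over NASH. It was at 17.5 FPKM in EV low dose, against 2.01 in NASH (log2 2.76), and at 1.62 in EV high dose, so EV low dose alone stands apart among the 4 libraries. Cyp2c38, its closest copy, was at 19.4 FPKM in EV low dose and 21.7 in NASH (log2 -0.02). Their sum was 36.9 FPKM in EV low dose and 23.7 in NASH (log2 0.75), which is within 2-fold. The annotated locus of Cyp2c39 encloses that of Cyp2c38, which runs on the other strand. How reads were divided between the copies was not tested, and the value rests on 1 library.

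In EV high dose 3 members were 2-fold higher than in NASH, none lower and 7 within 2-fold, with 0.816% of all genes higher and 0.373% lower. The median of the members was 0.53. The 3 were the neighbours Cyp2c54 (14.2 against 2.38 FPKM, log2 2.30), Cyp2c50 (112 against 44.4 FPKM, log2 1.45) and Cyp2c37 (42.6 against 20.6 FPKM, log2 1.15). Cyp2c37 was just past 2-fold, and its lowest value over all settings tried was 0.90. Summed, they were at 108 FPKM in EV low dose (log2 0.82) and 168 in EV high dose (log2 1.44), against 67.3 in NASH. Cyp2c70 stood at 0.65, Cyp2c29 at 0.57, Cyp2c44 at 0.48, Cyp2c40 at 0.30 and Cyp2c55 at 0.26. Cyp2c39 (log2 -0.06) and Cyp2c38 (log2 -0.45) were on the other side of the median gene.

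**Figure D3:**
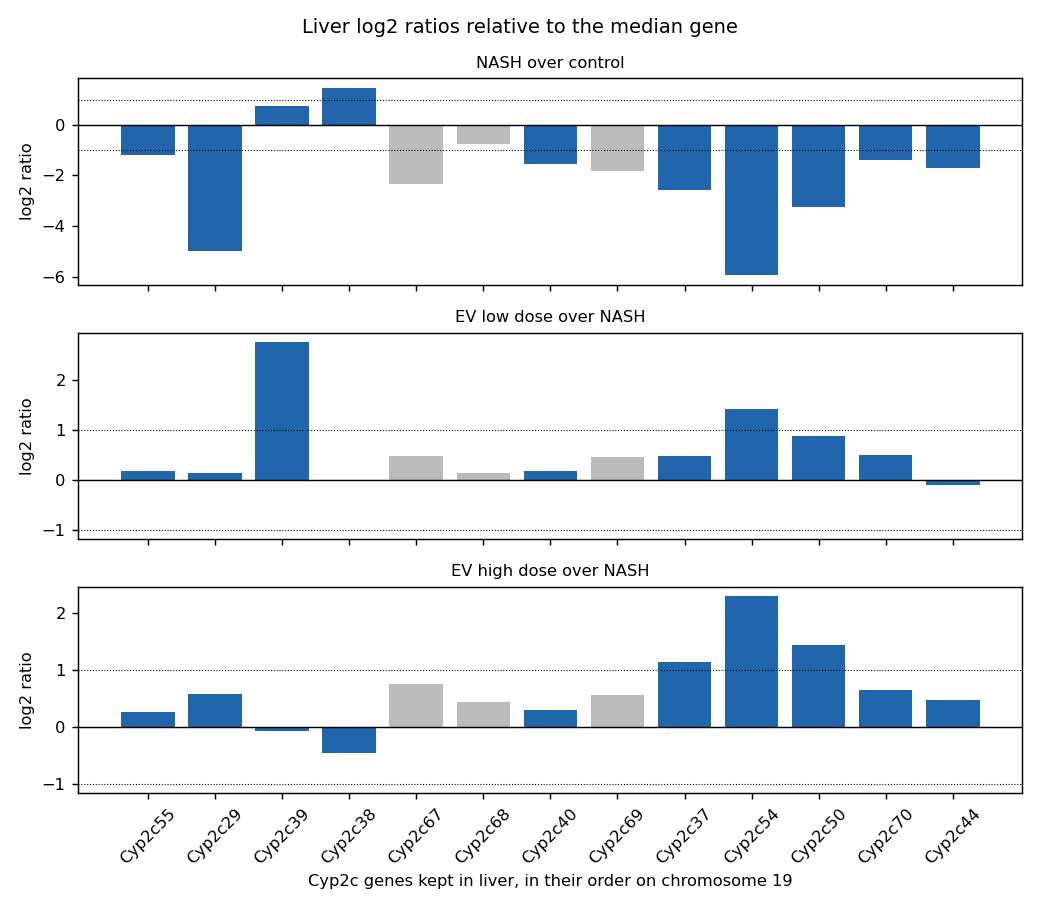
Log2 ratios of 13 Cyp2c genes in liver, relative to the median gene, in their order on chromosome 19, with listed members in blue, other Cyp2c genes in grey and dotted lines at 2-fold. Cyp2c29 and Cyp2c54 reach -4.99 and -5.96 in NASH over control, Cyp2c39 reaches 2.76 in EV low dose over NASH, and Cyp2c37, Cyp2c54 and Cyp2c50 pass 2-fold in EV high dose over NASH.

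Between the doses, 1 member was 2-fold apart, Cyp2c39 (log2 -2.82, high over low), and 9 were within 2-fold. Over all genes 0.163% were lower and 0.303% higher. Next were Cyp2c54 (log2 0.89), Cyp2c37 (log2 0.67), Cyp2c44 (log2 0.59) and Cyp2c50 (log2 0.57). No spread between animals is known, so these steps cannot be set against it.

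Some members stood far below control in both EV libraries, Cyp2c29 and Cyp2c54 farthest. These comparisons share the control library with NASH over control. In EV low dose 7 members were 2-fold lower than in control and 2 higher, with 5.69% of all genes lower and 6.5% higher. In EV high dose 6 were lower and 1 higher, with 5.14% of all genes lower and 6.28% higher. As deposited, 5 members were lower in EV low dose and 4 (Cyp2c29, Cyp2c37, Cyp2c50 and Cyp2c54) in EV high dose, with 2 higher at each dose, and at equal summed FPKM 5 were lower at the low dose and 3 at the high dose. Cyp2c29 was at 29.6 FPKM in EV low dose (log2 -4.83) and 40.8 in EV high dose (log2 -4.38), against 665 in control. Cyp2c54 stood at -4.52 in low and -3.62 in high dose, and Cyp2c50 at -2.35 and -1.78. Cyp2c70 was within 2-fold of control in both (log2 -0.85 and -0.70). The summed members were below control 5.13 times in NASH, 3.99 times in EV low dose and 3.26 times in EV high dose.

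Markers of other cell types were mostly within 2-fold of NASH in the EV libraries. Of 10 macrophage markers all were within 2-fold of NASH in both EV libraries, with sums of 524 FPKM (EV low dose) and 607 (EV high dose) against 580 in NASH. All 10 stellate cell markers were within 2-fold at the low dose and 9 at the high dose, where Col1a1 was lower (log2 -1.04). The hepatocyte list had 10 of 10 within 2-fold in both, with medians of 0.24 and 0.33 and sums of 30255 and 30974 FPKM against 29742. All 18 regulators were within 2-fold of NASH at both doses. In the growth hormone list 1 of 9 kept genes was higher at the low dose and none at the high dose. It was Bcl6, a transcriptional repressor, at 2.14 FPKM in NASH, 5.85 in EV low dose, 1.70 in EV high dose and 6.12 in control (low dose over NASH log2 1.26, high over low -1.35). Ghr stood at 0.42 at the low dose and 0.87 at the high dose, and Igfals at 0.45 and 0.85. The bile acid, CAR and PXR target, epoxide, pericentral and periportal lists had 0 genes higher and 0 lower at the low dose, where Cyp8b1 stood at -0.04. At the high dose bile acid synthesis had 2 of 13 higher, Cyp7b1 (log2 1.09) and Slc27a5 (log2 1.005), with Cyp8b1 at 0.80. Also at the high dose, Ces2a (log2 1.12) and Cyp2j5 (log2 1.05) were the 1 higher gene of their lists, Rgn (log2 1.18) was the 1 higher of the pericentral list, and Cyp2f2 (log2 1.06) and Hal (log2 1.02) were 2 of the 3 higher of the periportal list.

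Genes with a liver pattern most like that of the members were ranked by the root mean square difference of log2(FPKM + 1), centred over the 4 liver libraries, among 7073 protein-coding genes. With 4 libraries, of which control is far from the others, such likeness is a description. Nearest to the summed members were Serpina1d (0.057), Cyp4f14 (0.062) and Cyp2d9 (0.066). Nearest to Cyp2c54 were 3 major urinary protein genes, Mup22 (0.083), Mup10 (0.099) and Mup18 (0.173), which are near-identical copies themselves. Mup22 was at 87.9 FPKM in NASH, 231 in EV low dose, 461 in EV high dose and 4301 in control.

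Cyp2c29 had Serpina1e nearest (0.112), at 189 FPKM in NASH, 222 in EV low dose, 277 in EV high dose and 3965 in control, with Mup5 (0.274) and Tm7sf2 (0.464) farther off. Cyp2c50 was nearest to Nudt7 (0.105), Serpina3k (0.121) and Ces1f (0.125), and Cyp2c37 to Ces3a (0.079), Ugt2b1 (0.109) and Serpina12 (0.113). Cyp2c70 was nearest to Cth (0.026), Slc17a2 (0.035) and Atp5md (0.037), Cyp2c44 to Lifr (0.088), Inca1 (0.114) and Slc22a7 (0.117), and Cyp2c40 to Atg101 (0.031), Suox (0.041) and Sod1 (0.043). Cyp2c38, higher in NASH and the EV libraries than in control, was nearest to the clock genes Per1 (0.055) and Per2 (0.059) and to Gpt2 (0.060). Per2 was at 5.61 FPKM in NASH, 4.92 in EV low dose, 3.83 in EV high dose and 0.634 in control. For Cyp2c39 the nearest gene, Pmm1, was 0.736 away, so no gene compared came close to its pattern.

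In colon the set came down to 1 abundant gene. Cyp2c55, known as a P450 of the large intestine that hydroxylates arachidonic acid, held 98.9% to 99.5% of the summed FPKM of the 10 members in the 4 colon libraries. Cyp2c40 was the other member that reached 1 FPKM in a colon library. The other 8 stayed at 0.219 FPKM or less, and 4 of them were listed at 0 in all 4 colon libraries. Only 2 of the 10 members therefore entered the colon ratios.

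Cyp2c55 was lower in the colon of NASH mice than in control. It was at 120 FPKM in NASH, 328 in EV low dose, 161 in EV high dose and 579 in control. The control library was the highest and NASH the lowest, with a NASH value 4.80 times below control (log2 -2.32, rank 47 from the lowest of 15245 genes). Cyp2c40 was at 0.817, 1.495, 1.43 and 2.81 FPKM in these libraries (NASH over control log2 -1.13), a difference within 2-fold with a pseudocount of 5 FPKM or at equal summed FPKM. Both measured members were thus 2-fold lower in NASH. Over all genes kept in colon 2.26% were 2-fold lower and 2.12% higher.

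For Cyp2c55 the low dose stood between NASH and control, and the high dose near NASH. Cyp2c55 was higher in EV low dose than in NASH at 328 against 120 FPKM (log2 1.496), where 1.06% of all genes were 2-fold higher and 1.61% lower. In EV high dose it was at 161 against 120 FPKM (log2 0.40), within 2-fold, where 1.08% of all genes were higher and 1.48% lower. Between the doses its ratio of high to low was -1.09, with 0.794% of genes lower and 0.728% higher, and -0.82, within 2-fold, at equal summed FPKM. Against control Cyp2c55 stood at -0.82 in EV low dose (1.73% of genes lower, 1.15% higher) and at -1.91 in EV high dose (1.59% lower, 1.12% higher). Cyp2c40 was within 2-fold of NASH in both EV libraries (log2 0.52 in low dose, 0.40 in high dose). Unlike Cyp2c55, it was about level between the doses (high over low log2 -0.11).

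Colon epithelium markers were within 2-fold between NASH and control, while some hepatocyte markers were higher in NASH. All 15 colon epithelium markers were within 2-fold there (median 0.05), with a sum of 8253 FPKM in NASH and 7796 in control. In EV low dose over NASH 2 of 15 were higher and 13 within 2-fold (median 0.47, sum 10593 FPKM). The 2 were Aqp8 (log2 1.31) and Fabp2 (log2 1.25). Aqp8 was at 140 FPKM in NASH, 333 in EV low dose, 196 in EV high dose and 243 in control. Fabp2 was at 216, 496, 297 and 253 FPKM. Like Cyp2c55, both were higher in EV low dose than in EV high dose or NASH. Other markers of the list lay the other way. Muc2 (log2 -0.62), Cdx1 (log2 -0.34), Cdx2 (log2 -0.11) and Car4 (log2 -0.02) were below the median gene in EV low dose over NASH. Muc2 was at 1760 FPKM in NASH, 1097 in EV low dose, 1854 in EV high dose and 1519 in control. In EV high dose over NASH 15 of 15 were within 2-fold (median 0.23, sum 9026 FPKM). Smooth muscle markers summed to 1598 FPKM in NASH, 1552 in EV low dose, 1997 in EV high dose and 1750 in control. No marker of these 2 lists was at 0 in a colon library. Of 10 hepatocyte markers 7 were kept in colon, and 3 of them were 2-fold higher in NASH than in control (median 0.98): Alb at 4.60 against 0.782 FPKM, Apoa1 at 2.70 against 0.158 and Apob at 25.5 against 8.98. That list summed to 57.0 FPKM in NASH, 56.0 in EV low dose, 69.04 in EV high dose and 32.3 in control, with Ahsg at 0 in control, and its part in the Cyp2c values was not tested. The part of the epithelial share in the EV low dose value was not tested. Of 17 regulators kept in colon 4 were 2-fold higher in NASH than in control and none lower (median 0.43), and of 10 kept CAR and PXR targets 1 was higher and 2 lower (median -0.02). In the EV libraries those 17 regulators were all within 2-fold of NASH.

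The other Cyp2c genes of the colon divided into 2 sets. Cyp2c68 was at 16.0 FPKM in NASH, 30.4 in EV low dose, 27.6 in EV high dose and 42.8 in control (NASH over control log2 -1.42). Cyp2c69 was at 1.12, 2.73, 2.95 and 6.71 FPKM (log2 -1.92) and Cyp2c67 at 0.651, 1.39, 1.11 and 2.15 FPKM (log2 -0.99). Summed with Cyp2c40, which shares their sequence, they were at 18.6 FPKM in NASH, 36.0 in EV low dose, 33.0 in EV high dose and 54.5 in control (NASH over control log2 -1.56). Control was the highest and NASH the lowest library for each of these genes.

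Cyp2c65 and Cyp2c66, which lie next to Cyp2c55 on the chromosome, had another order. Cyp2c65 was at 62.9 FPKM in NASH, 72.6 in EV low dose, 36.8 in EV high dose and 30.7 in control (NASH over control log2 0.95). Cyp2c66 was at 3.28, 3.25, 1.31 and 1.30 FPKM (log2 0.84). Both were higher in NASH and EV low dose than in EV high dose and control. Their sum, at 66.2 FPKM in NASH against 32.0 in control, was just within 2-fold after the median gene was taken out (log2 0.96), and at 75.9 FPKM in EV low dose it was 2-fold higher than in control (log2 1.22).

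**Figure D4:**
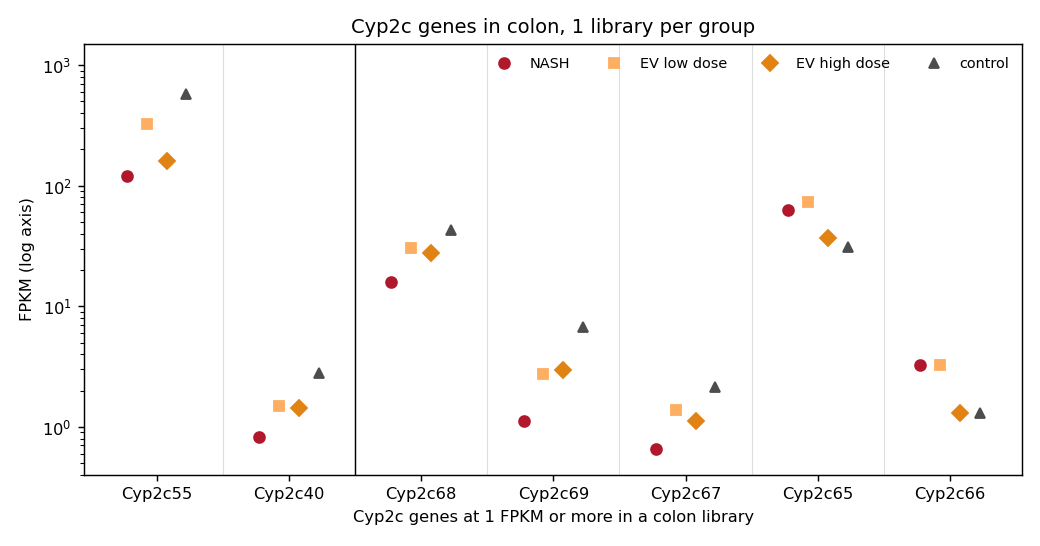
FPKM of the 7 Cyp2c genes that reached 1 FPKM in a colon library, on a log axis, with 1 point per library and the 2 listed members left of the black line. Cyp2c55 runs between 120 FPKM in NASH and 579 in control, and Cyp2c65 and Cyp2c66 are the genes whose NASH level lies above control.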

How the data were processed

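The 4 liver and 4 colon libraries, with no replicates, share a table of FPKM values deposited by the authors, 1 column per library. Per the labels' protocols, RNA came from TRIzol extraction followed by RNeasy Plus columns, and the libraries from a stranded TruSeq total RNA Gold kit. Trimmomatic 0.38, HISAT2, StringTie and the mm10 build appear in the submitters' processing notes, without role or order. Depth, read length and whether strand was used in counting are not known. Of 45777 gene IDs 45679 matched symbols of GRCm38.p6.

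Ratios were log2 of (FPKM + 1), less the median over genes at 1 FPKM or more in at least 1 library of the tissue (12866 genes in liver, 15245 in colon), and 2-fold was taken as apart. The pseudocount understates ratios of low genes. Members and gene lists were chosen with earlier results of these data known. Named list genes were the 2 highest and 2 lowest per list in NASH over control liver, among those reaching 5 FPKM in either library. Slc27a5, Bcl6 and, in colon, Alb, Apoa1, Hlf, Ppara, Muc2, Cdx1, Cdx2 and Car4 were named after their values were seen. Every Cyp2c gene and the 3 genes nearest in pattern were also named. Coding sequences of GENCODE M21 were aligned with Biopython. Alternatives were a pseudocount of 0.1 or 5 FPKM, ratios as deposited, median-of-ratios scaling, equal summed FPKM, no filter or one at 5 FPKM, protein-coding genes alone setting the median, sums over near-identical members and all Cyp2c genes. The ratio and call steps were tested on simulated data, which checks the arithmetic and gives no error rate for the calls. Python 3.11.15, numpy 2.4.6, pandas 2.3.3 and Biopython 1.88 were used.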

Additional observations from a re-analysis of the deposited data

Results flagged for a closer look

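Cyp2c55 and Cyp2c40, the members measured in both tissues, lay on opposite sides of the median gene in liver and colon when the high dose was set over the low dose. Cyp2c55 stood at 0.0813 in liver and at -1.09 in colon (log2 relative to the median gene), and Cyp2c40 at 0.121 in liver and -0.112 in colon. At equal summed FPKM the colon value of Cyp2c40 was 0.0834, on the same side as in liver, so its opposite sides were not kept. The difference between tissues was not tested. All but the colon value of Cyp2c55 are well within 2-fold.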

How the results depend on the processing

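No value past 2-fold changed direction under the alternatives tried. Over the comparisons with an alternative, 31 counts or sums moved by more than 1.5 times and 6 medians came within 2-fold. In the other 279 a count or sum stayed within 1.5 times, which allows small changes, or a median stayed on its side of 2-fold. Why values moved was not tested. In liver, NASH over control, 2 members were 2-fold higher with a pseudocount of 0.1 FPKM, as deposited, with median-of-ratios scaling, at equal summed FPKM and with no filter; 7 were lower with a pseudocount of 5 FPKM or a filter at 5 FPKM, 5 as deposited and with no filter, and 4 at equal summed FPKM, where the median was -0.70. Cyp2c29, Cyp2c37, Cyp2c38, Cyp2c50 and Cyp2c54 passed 2-fold on the same side under each setting. EV low dose over NASH had 1 higher with a pseudocount of 5 FPKM and 0 of 7 units when members of 90% coding identity were summed, and EV high dose over NASH then had 1. Against control, EV low dose had 1 higher after that summing and a median of -0.93 at equal summed FPKM. EV high dose had 2 higher with a pseudocount of 0.1 FPKM, as deposited, at equal summed FPKM and with no filter, and 0 with a pseudocount of 5 FPKM or median-of-ratios scaling; 3 were lower at equal summed FPKM, and its medians were -0.88 (pseudocount of 5 FPKM), -0.81 (as deposited and no filter) and -0.55 (equal summed FPKM). In colon, NASH over control had 1 lower with a pseudocount of 5 FPKM, at equal summed FPKM and with a filter at 5 FPKM, and 4 of 7 over all Cyp2c genes. The high over the low dose had 0 lower at equal summed FPKM and 2 over all Cyp2c genes. Over all Cyp2c genes EV low dose against control had 1 lower and 1 higher, and EV high dose against control 2 lower, as with a pseudocount of 0.1 FPKM. The sum over all Cyp2c genes was 470.3 FPKM in NASH liver against 1877 in control liver, and 206 in NASH colon against 665 in control colon. On that sum NASH stood 3.99 times below control in liver and 3.24 times in colon. Over the 10 members it stood 5.13 and 4.78 times below. Summing by identity and counting all Cyp2c genes were chosen after seeing the data; summing by protein identity was not run. No paired analysis was possible because each group has 1 library per tissue, and for the same reason none could be left out.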
